A study of Mus musculus with 2 samples.

Results

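Zinc finger genes whose symbol is Zfp followed by a digit were examined in C57BL/6 mouse embryos that had received siDnmt1, an siRNA that targets the maintenance DNA methyltransferase gene Dnmt1, or a scrambled siRNA. Each group was 1 library made from 20 pooled embryos of the 4/8-cell stage, and bead-captured mRNA was amplified by 20 cycles of PCR before sequencing. Rows were taken as expressed at a mean of at least 20 counts over the siDnmt1 and scrambled libraries. Of 360 Zfp rows among 23418 rows of the table, 152 reached that mean. Zfp42, Zfp352 and Zfp560 were left out, which left 149 genes. The mean count chose these genes and is not a result. Of the 149, 126 had at least 20 counts in both libraries, while 12 had fewer than 20 in the siDnmt1 library and 11 fewer than 20 in the scrambled library.

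Most of these genes encode proteins with arrays of C2H2 zinc fingers, in which a pair of cysteines and a pair of histidines hold a zinc ion and each finger reads a short stretch of DNA. Many also carry a KRAB box, which binds the corepressor Trim28. Trim28 brings the histone H3K9 methyltransferase Setdb1, heterochromatin proteins and, in early embryos, DNA methylation to retroelements and imprinted regions. The symbol Zfp is only a name, and some members bind RNA, assist ribosomes or work in mitosis.

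The libraries held 12236615 (siDnmt1) and 11675483 (scrambled) counts. Rn45s, the ribosomal RNA precursor, took 37.3% and 29.9% of them. Dnmt1 itself had 687 counts with siDnmt1 and 847 with scrambled siRNA, which was 1.23-fold lower (95% interval 1.11 to 1.37), and its log2 ratio stood at the percentile 38.3 of all genes. The embryo markers Pou5f1 (1489 and 2152 counts) and Nanog (40 and 23) were detected, but Zscan4d had 0 and 6. Of the oocyte and early embryo markers, Obox5 had 45 and 45, Gdf9 27 and 24, Zp3 13 and 42, and Oog1 0 in both. Amh, Foxl2, Cyp19a1, Hba-a1 and Col1a1 of follicle, blood and stromal cells had 0 counts in both. Ptprc, of blood cells, had 16 and 6. With 1 library per group no difference has a replicate check and no p-value was computed. Each interval is a 95% Clopper-Pearson interval of a ratio of counts, and it covers counting error only.

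The promoters of Zfp280b, the most abundant of these genes, and of Zfp60, Zfp747 and Zfp444, which had high and low ratios at a mean of at least 50 counts, were chosen after their values were seen and show how the CG content at these genes varies. CG pairs, the sites that Dnmt1 keeps methylated, are in capitals. The windows run from 250 bases before to 50 bases after a RefSeq transcript start on GRCm38.p6. They lie at chr10:76032362-76032661 (plus strand, Zfp280b), chr7:27731159-27731458 (plus strand, Zfp60), chr7:127376001-127376300 (minus strand, Zfp747) and chr7:6172263-6172562 (plus strand, Zfp444).
Zfp280b: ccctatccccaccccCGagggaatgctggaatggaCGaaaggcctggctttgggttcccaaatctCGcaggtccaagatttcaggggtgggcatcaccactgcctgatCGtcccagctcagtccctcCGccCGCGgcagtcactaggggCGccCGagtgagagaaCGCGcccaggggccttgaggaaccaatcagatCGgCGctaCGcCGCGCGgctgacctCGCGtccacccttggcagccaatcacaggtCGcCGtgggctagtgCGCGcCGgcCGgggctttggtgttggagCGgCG
Zfp60: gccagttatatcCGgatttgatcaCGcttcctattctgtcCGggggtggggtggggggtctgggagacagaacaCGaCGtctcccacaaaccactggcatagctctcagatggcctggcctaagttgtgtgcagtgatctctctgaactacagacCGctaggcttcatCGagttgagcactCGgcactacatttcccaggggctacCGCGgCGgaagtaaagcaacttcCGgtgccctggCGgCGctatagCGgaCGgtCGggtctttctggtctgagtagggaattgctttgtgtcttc
Zfp747: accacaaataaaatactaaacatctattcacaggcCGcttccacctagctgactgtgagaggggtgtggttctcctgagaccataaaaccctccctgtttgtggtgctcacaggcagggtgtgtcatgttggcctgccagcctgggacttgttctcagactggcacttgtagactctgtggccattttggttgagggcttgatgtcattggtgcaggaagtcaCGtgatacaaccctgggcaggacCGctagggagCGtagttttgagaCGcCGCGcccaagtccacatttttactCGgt
Zfp444: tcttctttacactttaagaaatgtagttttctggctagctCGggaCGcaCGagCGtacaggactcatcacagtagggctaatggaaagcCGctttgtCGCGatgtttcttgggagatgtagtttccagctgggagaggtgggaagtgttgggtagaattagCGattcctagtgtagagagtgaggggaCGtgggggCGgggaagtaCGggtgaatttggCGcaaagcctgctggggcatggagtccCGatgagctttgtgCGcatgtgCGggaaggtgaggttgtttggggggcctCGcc
The first pair belongs to genes that were higher in the siDnmt1 library and holds 27 and 17 CG pairs. The other pair belongs to genes that were lower there and holds 8 and 16.

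Across the 149 genes, 26 were higher in siDnmt1 by 2-fold or more and 16 lower by as much, on the scale log2((siDnmt1 + 5)/(scrambled + 5)). That is 17.4% higher and 10.7% lower, beside 12.5% and 16.7% of all 7315 genes at this mean count or above. Of the 26 higher genes, 8 had fewer than 20 scrambled counts, and of the 16 lower genes, 8 had fewer than 20 siDnmt1 counts. These reached the mean through the library in which they were high, so they had to differ. The median log2 ratio of the Zfp genes was 0.12, with quartiles of -0.48 and 0.78. Over all genes compared the median was -0.02 and the quartiles were -0.67 and 0.57. The difference between the Zfp genes and all genes was not tested. Of the 149 genes, 70 overlap another annotated gene, so reads of both may be mixed in their counts. This limit is not repeated at each such gene below. In pooled embryos, fewer cells of a type and less RNA per cell cannot be told apart. By counting error, 60 genes had an interval of the ratio above 1 and 46 below 1, which is 40.3% and 30.9%, beside 35.4% and 37% of all genes compared. Under the scalings tried, the median log2 ratio of the 149 genes lay between 0.057 and 0.20. That of all genes compared lay between -0.09 and 0.06. A scaling moves all genes nearly alike, so these ranges cannot check the difference between the 2 medians. The DESeq2 factors were 1 and 1 and repeated the main values.

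**Figure D1:**
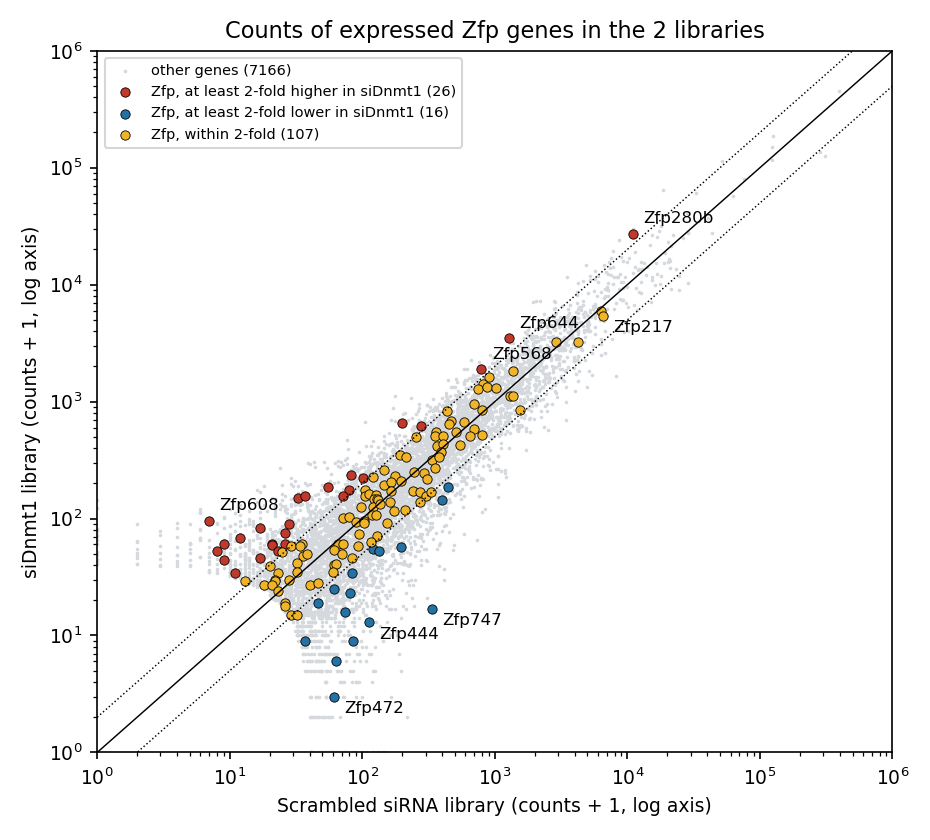
Counts of each gene in the siDnmt1 library (y axis) and the scrambled library (x axis), both as counts + 1 on log axes. Coloured points are the 149 Zfp genes, grey points the 7166 other genes compared. The solid line marks equality and the dotted lines a 2-fold difference of counts + 1, so that a few points near them fall on another side than the calls, which use counts + 5. Zfp280b stands apart from the other Zfp genes by level.

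One gene held much of the signal. Zfp280b, whose family is related to the Drosophila insulator protein suppressor of Hairy wing, had 27181 counts with siDnmt1 and 11074 with scrambled siRNA. It was 2.45-fold higher (2.40 to 2.51) and made up 31.8% of all counts of these genes with siDnmt1 and 17.1% with scrambled siRNA. The summed counts of the 149 genes were 85452 (siDnmt1) and 64594 (scrambled), a ratio of 1.32. Without Zfp280b the sums were 58271 and 53520, a ratio of 1.09, so that most of the difference in the sum was that of 1 gene. Its relative Zfp280d had 522 and 802 counts and was 1.54-fold lower (1.37 to 1.72), with 6 overlapping genes. Zfp280c had 2 and 1.

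Levels can be compared between genes per kilobase of transcript. Zfp280b had 5333 (siDnmt1) and 2173 (scrambled) counts per kb. The next was Zfp207, which encodes the spindle assembly factor BuGZ, with 981 and 1285 counts per kb. Zfp217, a partner of CoREST repressor complexes, had 955 and 1151, Zfp828 (Champ1, a kinetochore protein) 808 and 717, and Zfp106, an RNA-binding protein, 650 and 694 counts per kb. All 4 of these genes were within 2-fold between the libraries, and their intervals excluded equality at these depths. Zfp207 had 3216 counts with siDnmt1 and 4212 with scrambled siRNA and was 1.31-fold lower (1.25 to 1.37). Zfp217 had 5428 and 6545 and was 1.21-fold lower (1.16 to 1.25), and Zfp106 had 5904 and 6307 and was 1.07-fold lower (1.03 to 1.11), with 25.2% of its 50-base stretches shared with other genes. Zfp828 had 3242 and 2877 and was 1.13-fold higher (1.07 to 1.19). The intervals do not cover the choice of scaling. With totals without Rn45s made equal, the log2 ratio of Zfp106 went from -0.095 to -0.001. Those of Zfp207, Zfp217 and Zfp828 kept their sign, at -0.29, -0.18 and 0.27. Of the others of the 12 highest mean counts, Zfp821 had 1833 and 1358, Zfp655 had 1626 and 895, and Zfp51, a KRAB zinc finger gene, 840 and 1540.

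Beside Zfp280b, 2 abundant genes with known silencing roles were higher. Zfp644, a partner of the H3K9 methyltransferases G9a and GLP, had 3500 counts with siDnmt1 and 1285 with scrambled siRNA, a 2.72-fold difference (2.55 to 2.91). Zfp568, the KRAB protein that represses the placental promoter of Igf2, had 1883 and 791 counts and was 2.38-fold higher (2.19 to 2.59). The other G9a and GLP partners were nearly level: Zfp462 had 53 and 60 counts, Zfp518a 143 and 131, and Zfp518b 106 and 126, and each interval included equality. Of these 4 partners, Zfp644 alone was at least 2-fold higher and 0 were lower, beside 12.5% and 16.7% of all genes compared. At Zfp644, 3 other annotated genes overlap on GRCm38, and whether counting used strand is not known, so its count is uncertain.

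The KRAB proteins that protect imprints did not differ by 2-fold. Zfp57, which keeps methylation at imprinted control regions after fertilisation, had 107 counts with siDnmt1 and 117 with scrambled siRNA, 1.09-fold lower with an interval that included equality (0.834 to 1.43). Zfp445, which shares this task, had 674 and 584 counts and was 1.15-fold higher (1.03 to 1.29). Of 5 genes listed as silencers of retroelements, 2 were among the 149. Zfp809, which recognises the primer binding site of murine leukaemia viruses, had 245 and 290 counts, with an interval that included equality (0.710 to 1.01). Zfp932, which acts on endogenous retroviruses, had 100 and 70 counts and was 1.43-fold higher (1.04 to 1.97). Its count is uncertain, since 45.2% of the 50-base stretches of its transcript also occur in another gene, mainly Gm15446 (24 and 18 counts). Zfp708, another retroelement silencer, had 10 and 1 counts and Zfp819 had 11 and 5, below the level required. The 5 genes Zfp455 to Zfp459, neighbours in a KRAB cluster that controls sex-limited liver genes, had 0 to 4 counts.

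The cofactors of KRAB proteins were counted beside them. Of 16 such genes, a list that includes the siRNA target Dnmt1, 14 were compared. By 2-fold or more 0 were higher and 3 lower, and their median log2 ratio was 0.06. That is 0% and 21.4%, beside 12.5% and 16.7% of all genes compared. Trim28 had 6959 counts with siDnmt1 and 8139 with scrambled siRNA, 1.17-fold lower (1.13 to 1.21), and Setdb1 had 627 and 669. Among those lower were Uhrf1, which guides Dnmt1 to hemimethylated DNA (58 and 380), and Cbx1, a heterochromatin protein (30 and 82). The related heterochromatin protein Cbx5 had 643 and 330 counts and was 1.95-fold higher (1.70 to 2.23). The histone deacetylase Hdac1 had 788 and 443 and was 1.78-fold higher (1.58 to 2.00), and Morc3 had 581 and 298. Smarcad1, a nucleosome remodeller, was 2.02-fold higher by its counts of 488 and 242, just inside the 2-fold limit on the log2 scale.

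**Figure D2:**
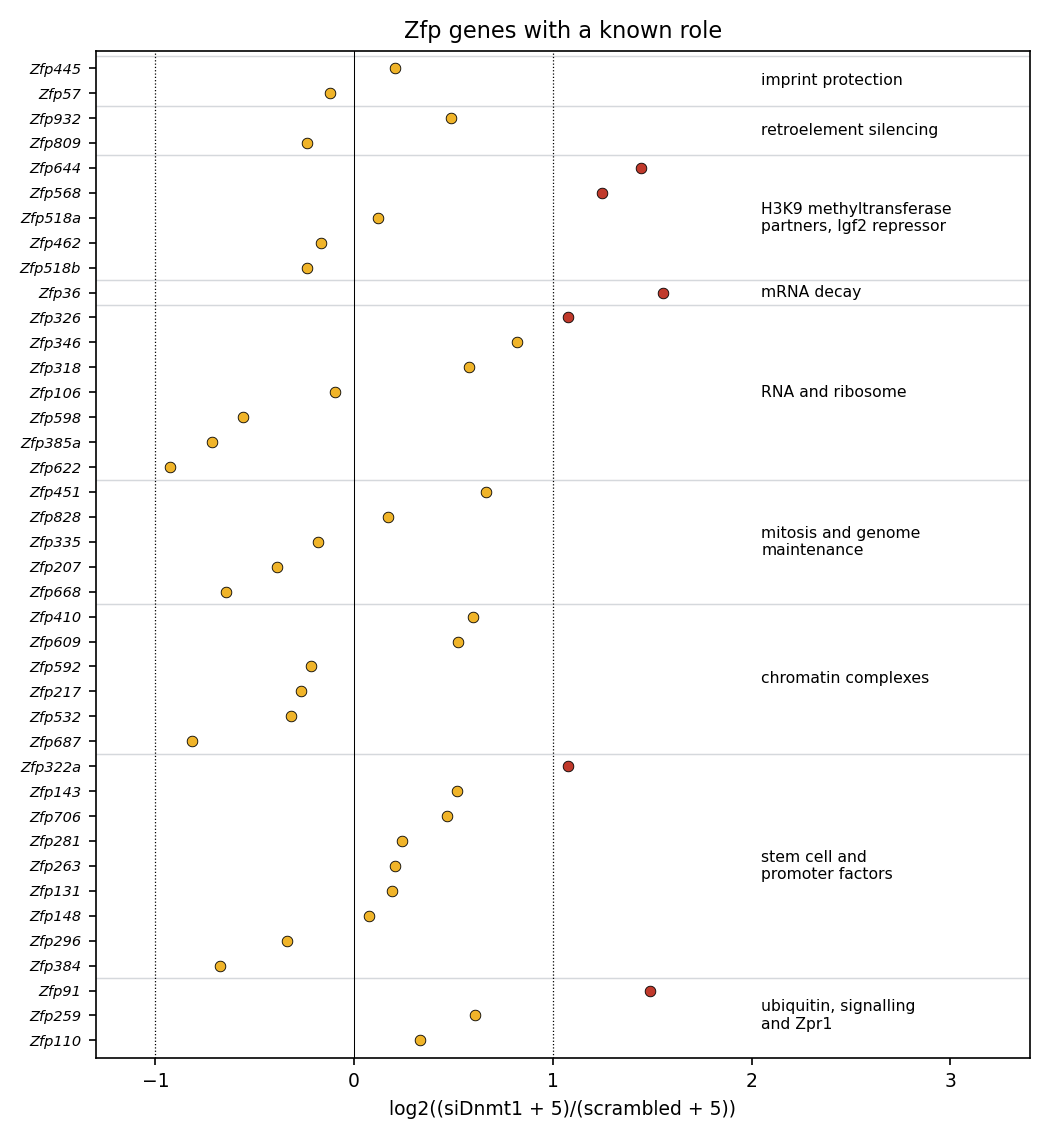
Log2((siDnmt1 + 5)/(scrambled + 5)) of each expressed Zfp gene on a list of genes with a known role, grouped by role. Dotted lines mark 2-fold, and red points lie beyond it. Each role with more than 3 genes holds genes on both sides of 0. Of these 40 genes 6 were at least 2-fold higher and 0 lower, beside 12.5% and 16.7% of all genes compared. The difference was not tested.

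Among genes that act on RNA and ribosomes, Zfp36 (tristetraprolin, which triggers decay of AU-rich mRNAs) had 89 counts with siDnmt1 and 27 with scrambled siRNA and was 3.30-fold higher (2.12 to 5.28). Its relatives Zfp36l1 (14 and 10) and Zfp36l2 (10 and 10) were under a mean of 20. Zfp326, of the DBIRD complex of transcript elongation and splicing, had 52 and 22 counts and was 2.36-fold higher (1.41 to 4.09). Its log2 ratio of 1.08 became 0.78 with a pseudocount of 20, 0.96 without the length trend and 0.97 without the GC trend, all under 2-fold. Zfp346, a binder of double-stranded RNA, had 260 and 145 counts and was 1.79-fold higher (1.46 to 2.21). At the other end, Zfp622, a factor of late 60S ribosome maturation, had 156 and 301 counts and was 1.93-fold lower (1.59 to 2.36). Zfp598, the ubiquitin ligase that senses collided ribosomes, had 116 and 173 counts and was 1.49-fold lower (1.17 to 1.90). Zfp385a, a regulator of the p53 response, had 34 and 59, and Zfp318, which acts on immunoglobulin transcripts in B cells, 156 and 103. Of 7 expressed genes of this list (Zfp36 apart) 1 was at least 2-fold higher and 0 lower. That is 14.3% and 0%, beside 12.5% and 16.7% of all genes compared.

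None of the 5 expressed genes of mitosis and genome maintenance was 2-fold apart. Of all genes compared, 12.5% were higher and 16.7% lower by as much. Zfp451, a SUMO ligase, had 337 counts with siDnmt1 and 211 with scrambled siRNA and was 1.60-fold higher (1.34 to 1.91). Zfp668, linked to DNA repair, had 27 and 45 and overlaps Zfp646. Zfp335, a cofactor linked to neural progenitors, had 333 and 378, with an interval that included equality. The 6 partners of chromatin complexes were also within 2-fold, with a median log2 ratio of -0.24. Zfp592, Zfp532 and Zfp687, which bind the reader protein Zmynd8, were all lower, with 1126 and 1309, 1105 and 1378, and 45 and 83 counts in the siDnmt1 and scrambled libraries. Zfp687 was 1.84-fold lower (1.27 to 2.71). The count of Zfp532 is uncertain, with 36.7% of its 50-base stretches shared. Zfp410, the activator of Chd4, had 544 and 357 counts, and Zfp609, a partner of cohesin loading and Integrator, 648 and 449.

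Of 9 expressed stem cell and promoter factors, 1 was at least 2-fold higher and 0 lower. That is 11.1% and 0%, beside 12.5% and 16.7% of all genes compared. Zfp322a, an activator of pluripotency genes in mouse stem cells, had 155 counts with siDnmt1 and 71 with scrambled siRNA and was 2.18-fold higher (1.64 to 2.93). Its log2 ratio was 1.07, but under the 2-fold limit with a pseudocount of 20 (0.94) and with the length trend (0.95) or GC trend (0.96) taken out, and 1 gene overlaps it. Zfp143, which binds many promoters, had 161 and 111 counts and was 1.45-fold higher (1.13 to 1.86). Zfp706, which restrains Klf4 in stem cells, had 957 and 690. Zfp281 (145 and 122), Zfp131 (147 and 128) and Zfp148 (207 and 196) had intervals that included equality. Zfp263 had 420 and 363. Lower were Zfp384, a promoter-binding factor with 167 and 270 counts (1.62-fold, 1.33 to 1.97), and Zfp296, a partner of Klf4 with 510 and 646 counts (1.27-fold, 1.13 to 1.42). The log2 ratio of Zfp296 was -0.34, but 0.25 with the length trend and 0.02 with the GC trend taken out. Its direction is therefore not settled.

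Genes of ubiquitin and signalling stood at 236 and 81 counts for Zfp91, a ubiquitin ligase, which was 2.91-fold higher (2.25 to 3.80). Zfp259 (Zpr1, a partner of the SMN protein) had 1331 counts with siDnmt1 and 871 with scrambled siRNA. Zfp110, which interacts with the neurotrophin receptor p75, had 508 and 403. A list of factors of later tissues had 0 expressed members, and those in the table had 0 to 16 counts in either library. Among them Zfp423, of neural and fat cell development, had 16 and 11 counts and Zfp521 had 0 and 0.

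The largest ratios belonged to genes of low or middle level. With a mean of at least 50 counts, Zfp608, a relative of Zfp609, had the highest ratio, with 95 counts with siDnmt1 and 6 with scrambled siRNA, a ratio of 15.8 (7.01 to 44.2). Its mean of 50.5 passed this limit through the siDnmt1 library, and 2 annotated genes overlap it, so its count is uncertain. Zfp60 had 150 and 32 counts (4.69-fold higher, 3.18 to 7.10) and Zfp113 had 156 and 36 (4.33-fold, 3.0 to 6.41). Zfp597, whose human counterpart is imprinted, had 184 and 54 counts (3.41-fold, 2.50 to 4.71), and Zfp777 had 649 and 200 (3.25-fold, 2.77 to 3.82). The others of the 12 highest that have not been given were Zfp599 with 623 and 276 counts and Zfp345 with 173 and 79. Zfp597 and Zfp345 share 22.6% and 30.6% of their 50-base stretches with other genes, so their counts are uncertain. Zfp36, Zfp91, Zfp644 and Zfp777, also among the 12 highest, overlap other annotated genes, so their counts are uncertain too. Like Zfp608, the genes Zfp60, Zfp113 and Zfp36 had fewer than 50 scrambled counts. They reached the mean of 50 through the siDnmt1 library, so they had to differ.

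At the lower end, Zfp747, a KRAB gene with 10 fingers, had 16 counts with siDnmt1 and 336 with scrambled siRNA, 21-fold lower (12.7 to 37.2). Of its 50-base stretches 36.9% also occur in another gene, mainly 9130019O22Rik, which had 1 and 0 counts. Zfp444, which has a SCAN domain, a module through which such proteins pair, had 12 and 111 counts (9.25-fold lower, 5.09 to 18.4). Zfp770 had 56 and 195 (3.48-fold lower, 2.57 to 4.78), Zfp414 had 22 and 80 (3.64-fold, 2.25 to 6.12) and Zfp869 had 144 and 395 (2.74-fold, 2.26 to 3.34). Zfp54 (52 and 133), Zfp775 (186 and 442), Zfp446 (33 and 83) and Zfp868 (54 and 120) were between 2.22-fold and 2.56-fold lower. Zfp212 (138 and 272), Zfp574 (168 and 330) and Zfp622 completed the 12 lowest and lay within 2-fold. Zfp414 has 43.9% of its stretches in common with another gene. Zfp414, Zfp444, Zfp54 and Zfp775 overlap other annotated genes, so their counts are uncertain. Zfp747, Zfp444, Zfp414 and Zfp446 had fewer than 50 siDnmt1 counts. These reached the mean of 50 through the scrambled library, so they had to differ.

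**Figure D3:**
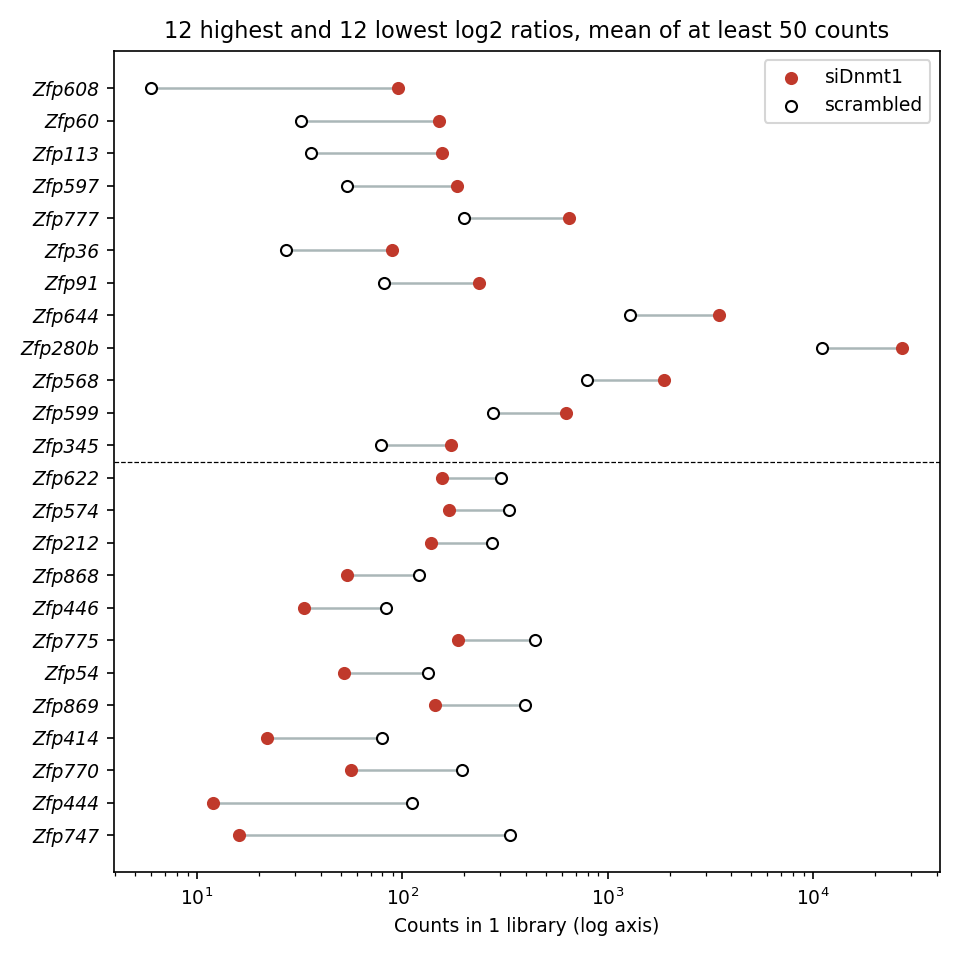
Counts in the siDnmt1 library (filled red) and the scrambled library (open) of the 24 Zfp genes with the 12 highest (above the dashed line) and 12 lowest log2 ratios at a mean of at least 50 counts, on a log axis. The filled point of Zfp608 is at 95 counts and its open point at 6, while for Zfp747 the filled point is at 16 and the open point at 336.

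Below a mean of 50 counts, where 44 of the 149 genes lie, ratios were wider and less precise, and the following genes were chosen after their values were seen. Zfp472, a KRAB gene, had 2 counts with siDnmt1 and 60 with scrambled siRNA, a ratio of 30.0-fold lower with an interval of 7.95 to 253. Zfp750, a regulator of epidermal differentiation, had 5 and 62 (12.4-fold lower, 5.04 to 39.5) and Zfp637 had 8 and 84 (10.5-fold lower, 5.09 to 25.1). Zfp553 had 60 and 8 (7.5-fold higher, 3.57 to 18.2), and Zfp473, whose human counterpart processes histone mRNAs, had 52 and 7 (7.43-fold higher, 3.36 to 19.4). Zfp750, Zfp553 and Zfp473 each overlap another annotated gene, so their counts are uncertain. Zfp960 had 67 and 11 counts, but 84.5% of its 50-base stretches are shared with other genes, mainly Zfp97, so its ratio cannot be assigned to it. The genes nearest the mean of 20 were Zfp35 (28 and 12), Zfp39 (17 and 25) and Zfp707 (14 and 28) on the inside and Zfp330 (28 and 11), Zfp963 (9 and 30) and Zfp191 (31 and 4) outside it.

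Patterns in the annotated proteins, which the choice of genes did not use, divided the group. A KRAB box with at least 2 C2H2 fingers was found in 69 genes. Another 63 had such fingers without KRAB or SCAN, 4 had SCAN and fingers without KRAB, and 12 had 0 or 1 finger. Zfp939 had no coding transcript in the annotation. The median was 10 fingers per gene, and Zfp142 had the most with 37. Among the KRAB genes 16 were higher in siDnmt1 and 8 lower by 2-fold or more, which is 23.2% and 11.6%, with a median log2 ratio of 0.30. Among the 79 genes without KRAB 10 were higher and 8 lower, which is 12.7% and 10.1%, with a median of 0.10. The shares of all genes compared were 12.5% and 16.7%. The KRAB genes had shorter transcripts (median 3407 nt, against 4311 nt without KRAB), and with the length trend taken out the medians were 0.15 and 0.06. Without genes whose counts are uncertain, the medians were 0.09 with KRAB and 0.21 without, and at a mean of at least 100 counts they were 0.15 and 0.17, so the order of the classes turned round in both. The difference between the classes was not tested.

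**Figure D4:**
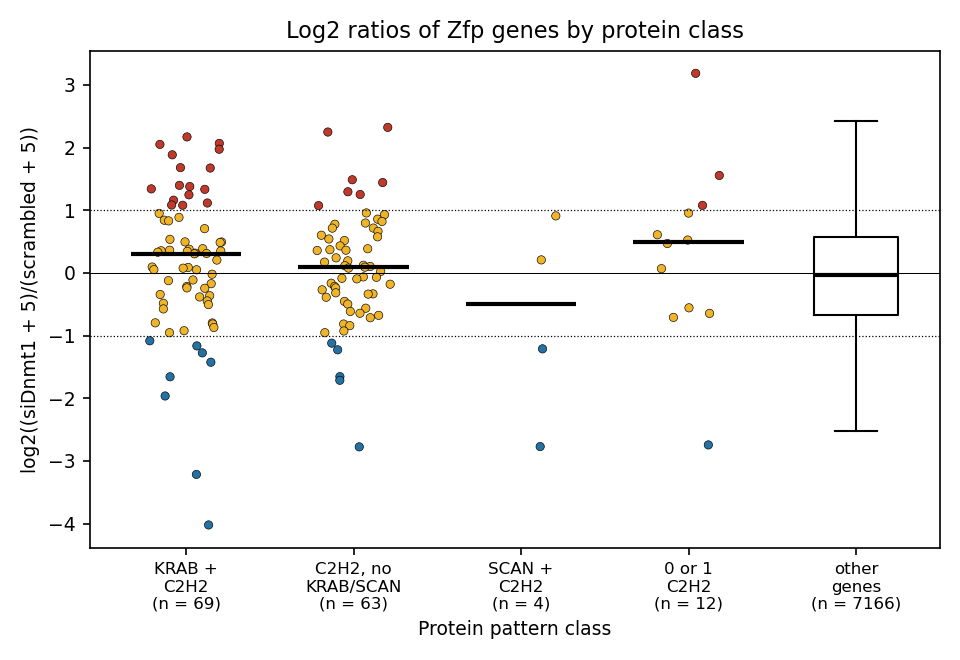
Log2((siDnmt1 + 5)/(scrambled + 5)) of Zfp genes by protein pattern class, with 1 point per gene and a bar at the median of each class. The box shows the quartiles of the other genes compared, with whiskers toward the extremes and single values beyond them not drawn. The classes overlap over most of their range.

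The number of fingers and the log2 ratio had a Spearman rho of 0.022 across 148 genes, which come from the same 2 libraries and are not replicates. The median log2 ratio was 0.10 in the 32 genes with 1 to 5 fingers, 0.37 in the 40 with 6 to 10, 0.09 in the 47 with 11 to 15 and 0.05 in the 24 with 16 or more. Of the 40 genes with 6 to 10 fingers, 22.5% were at least 2-fold higher and 12.5% lower, beside 12.5% and 16.7% of all genes compared. Of the 32 with 1 to 5 fingers, 4 were higher and 3 lower by as much. Of the 47 with 11 to 15 fingers, 8 were higher and 6 lower, and of the 24 with 16 or more, 4 and 1. The differences between finger numbers, and from all genes compared, were not tested. Transcript GC content had a rho of -0.25 over the Zfp genes and -0.11 over all genes compared, and transcript length had 0.18 and 0.24. The Zfp transcripts were poorer in GC, with a median of 45.9%, beside 49.4% over all genes compared. The part of length and GC in single ratios was not tested.

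Promoters of these genes held fewer CG pairs than those of all genes compared, a difference that was not tested. RefSeq promoter windows were matched for 119 of the 149 genes, and where a gene had several starts the window with the most CG pairs was used. The median was 17 CG pairs per 300 bases, beside 24 over 5823 genes compared. Windows with fewer than 10 CG pairs made up 23.5% of the Zfp genes, 9.67% of all genes compared and 54.2% of the 27025 genes in the promoter table. KRAB genes had a median of 11 CG pairs and those without KRAB 24. Genes at least 2-fold higher in siDnmt1 had 2 to 51 CG pairs (median 17, 21 genes with a window), and those at least 2-fold lower had 8 to 35 (median 13.5, 14 genes). The ranges overlap, and the rank correlation of CG count with the log2 ratio was -0.0071 across the 119 genes. Of the sequences printed above, those of Zfp60 and Zfp444 hold 17 and 16 CG pairs and belong to opposite ends of the ratios. A count of CG pairs does not tell whether they were methylated.

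**Figure D5:**
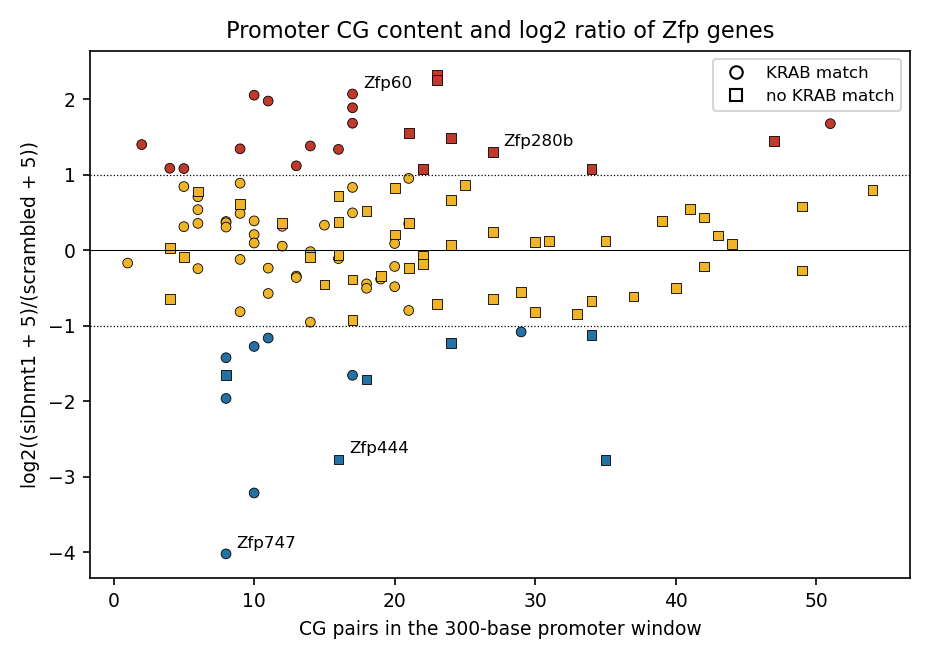
CG pairs in the 300-base promoter window (x axis) and log2((siDnmt1 + 5)/(scrambled + 5)) (y axis) of Zfp genes with a window, by KRAB match. Red points are higher and blue points lower in siDnmt1 by 2-fold or more. Most KRAB genes lie below 20 CG pairs. Red points lie from 2 to 51 CG pairs and blue points from 8 to 35.

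Many KRAB genes lie in clusters, and 38 of the 149 genes were on chromosome 7 and 19 on chromosome 17. On chromosome 7, 9 were at least 2-fold higher and 4 lower (23.7% and 10.5%), with a median log2 ratio of -0.09. On chromosome 17, 4 were higher and 4 lower (21.1% and 21.1%), with a median of 0.09. The shares of all genes compared were 12.5% and 16.7%, and these differences were not tested. Of 17 pairs of these genes with no other protein-coding gene between them, 8 had log2 ratios of the same sign. On chromosome 17, Zfp677 had 82 counts with siDnmt1 and 16 with scrambled siRNA, while its neighbour Zfp54 had 52 and 133. On chromosome 6, Zfp637 had 8 and 84 counts beside Zfp239 with 1288 and 750. On chromosome 7, Zfp324 had 60 and 20 beside Zfp446 with 33 and 83. These pairs were chosen after their values were seen, as those of opposite sign with the largest differences. Zfp677 and Zfp637 had fewer than 20 counts in 1 library and reached the mean of 20 through the other, so they had to differ. Of the pairs with the same sign, Zfp282 had 118 and 209 counts beside Zfp212 with 138 and 272. By sign alone, neighbouring genes differed in direction about as often as they shared it. Signs were also counted where the intervals of both genes included equality, as for Zfp78 beside Zfp28 and Zfp111 beside Zfp109.

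Zinc finger genes with other names were set beside them. Of 39 expressed genes named Zbtb, Zscan or Zkscan, 4 were higher and 7 lower by 2-fold or more, with a median log2 ratio of -0.24. That is 10.3% and 17.9%, beside 12.5% and 16.7% of all genes compared. Of 6 Zmym genes 2 were higher and 0 lower (median 0.19), and of 12 Zc3h genes 0 were higher and 1 lower (median -0.28). Zbtb43 had 301 counts with siDnmt1 and 68 with scrambled siRNA, and Zscan10, a stem cell factor, 74 and 7. Zkscan1 had 438 and 1113. The difference between these genes and those named Zfp was not tested.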

How the data were processed

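RNA of 1 siDnmt1 and 1 scrambled library was analysed. The deposited table holds whole-number counts per gene symbol. Trim Galore, HISAT2, HTSeq, DESeq2 and mm9 are named in the submitters' processing notes, without versions. The annotation and the handling of strand and multi-mapped reads were not given in the sources used here. By its name, the table that the authors deposited holds DESeq2-normalised counts. The pattern of low values allowed scaling factors from 0.996 to 1.0005 (siDnmt1) and 0.9975 to 1.001 (scrambled), and recovered a factor of 0.9 from a test copy, so the values were treated as unscaled counts.

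With 0 residual degrees of freedom no test could be fitted. Log2 ratios used a pseudocount of 5, and genes were compared from a mean count of 20. Ratios carry 95% Clopper-Pearson intervals, which treat amplified reads as independent. Length, GC and protein patterns came from the longest GENCODE M21 (GRCm38) transcript or protein of a symbol, with 147 symbols matched directly and 2 through synonyms. C2H2 fingers were a pattern of cysteine and histidine spacing. A KRAB box needed 10 of 18 conserved positions, a SCAN domain 15 of 34. Promoters came from RefSeq (GRCm38.p6). Counts were called uncertain where a gene overlapped another or shared over 10% of 50-base stretches (79 genes). Genes named were the 12 highest and 12 lowest ratios at a mean of at least 50, the 12 highest means, those on role lists, those at 0 in 1 library (0 genes) and those nearest the limit. The values of 1 cofactor gene are not reported here. The genes and lists were chosen with earlier results of these data known. The statistics were tested on simulated data. Tools were Python 3.11.15, numpy 2.4.6, scipy 1.17.1, statsmodels 0.14.6, edgeR 4.0.16 and DESeq2 1.42.0 (scaling factors only).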

Additional observations from a re-analysis of the deposited data

How the results depend on the processing

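The counts of 26 higher and 16 lower genes became 10 and 4 of 81 at a mean of at least 100 counts (12.3% and 4.94%, beside 9.33% and 11.4% of all genes at that mean). They were 51 and 32 of 357 with no filter (14.3% and 8.96%, beside 7.18% and 9.06%), 6 and 5 at a 4-fold threshold (4.03% and 3.36%, beside 2.64% and 4.51%), and 44 and 32 at a 1.5-fold threshold (29.5% and 21.5%, beside 24.7% and 28%). Without genes of uncertain counts (70 left, chosen after seeing the data) they were 12 and 7. These settings change the number of genes tested or the threshold itself. Under the pseudocounts, the 4 scalings, the centring and the trends with length, mean count and GC content (the last 2 added after seeing the data), the counts stayed within 1.5 times. The median of the group lay between 0.00 (no filter) and 0.20. The median of KRAB genes was 0.15 at a mean of at least 100 counts and 0.39 when totals without Rn45s were made equal. Of 620 log2 ratios of named genes under the alternatives, 585 stayed within counting error, 35 moved further and 0 of those past 2-fold changed sign. Part of the 585 was fixed in advance, since the DESeq2 factors of 1 and 1 repeat the main values. Below 2-fold, signs did change for some genes. With the length trend taken out, Zfp296 went from -0.34 to 0.25 and Zfp809 from -0.24 to 0.15. Zfp518a went from 0.12 to -0.05 and Zfp148 from 0.08 to -0.13. No paired analysis was possible because each group has 1 library. Depth limits genes under 50 counts, and pools of embryos were not replicated.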

Other observations

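Of the 208 Zfp rows under a mean of 20 counts, 49 had 0 counts in both libraries. The 208 rows summed to 973 counts with siDnmt1 and 831 with scrambled siRNA. Of the 159 with a count, 21 had 0 in siDnmt1 and 32 had 0 in the scrambled library. The 9 Zfp rows on the X chromosome were all under that mean, with 0 to 22 counts in a library. The largest of these were Zfp711 with 2 counts with siDnmt1 and 22 with scrambled siRNA, and Zfp275 with 6 and 18.

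Zfp345 and Gm14139, which share sequence, had 173 and 79 counts and 172 and 186 counts in the siDnmt1 and scrambled libraries. Zfp955b had 15 and 73, while Zfp955a, which shares sequence with it, had 13 and 5. How the authors' counting assigned shared reads is not known.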
